A study of Mus musculus with 8 samples.

Results

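Basement membrane genes were followed in the exorbital lacrimal glands (LGs) of female C57BL/6J mice fed ad libitum (AL) or kept on a 40% calorie restriction (CR). The 10 genes were taken by symbol from the table of gene counts and encode chains of collagen IV (Col4a1, Col4a2, Col4a4), laminin chains (Lama4, Lama5, Lamb1, Lamb2, Lamc1), nidogen 1 (Nid1) and perlecan (Hspg2). All 10 were present among the 24552 genes of the table. RNA of 4 AL and 4 CR mice was sequenced near the 3' ends of transcripts. Mice were 6 to 7 months old when CR started and 10 to 11 months old when the glands were taken, 4 months later, and the labels name no transgene or deleted gene. CR mice were fed once a day before the dark phase, so the groups also differed in feeding time. The study used 2 cohorts of mice on different chow, in the second of which the CR diet was enriched in vitamins and micronutrients, and the labels do not give the cohort of a library.

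The basement membrane is a thin sheet of matrix under the epithelium of acini and ducts and around myoepithelial cells, capillaries and nerves. Laminins, each built of an alpha, a beta and a gamma chain, polymerize at the cell surface and bind integrins and dystroglycan. Collagen IV forms a second network that carries the mechanical load, and nidogen and the heparan sulfate proteoglycan perlecan link both networks. The laminin alpha chain decides which receptors are bound. The laminin alpha 4 chain is typical of capillaries and other mesenchymal tissue, whereas the laminin alpha 5 chain is found under most adult epithelia and in mature vessels.

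Sequences before the starts of Lama5 and the collagen IV genes are shown because Lama5 stood out in level and the collagen IV genes share their start regions. Lama5 (Gene ID 16776), which had the largest log2 fold change of the 10 genes, lies on the minus strand of chromosome 2 from 180176373 to 180225859 of GRCm38, the build also named mm10. The 250 bases before its annotated start (chr2:180225860-180226109, minus strand, RefSeq promoter table on GRCm38.p6) are given here 5' to 3' with GC boxes, GGGCGG or its complement CCGCCC, in capitals.
Lama5: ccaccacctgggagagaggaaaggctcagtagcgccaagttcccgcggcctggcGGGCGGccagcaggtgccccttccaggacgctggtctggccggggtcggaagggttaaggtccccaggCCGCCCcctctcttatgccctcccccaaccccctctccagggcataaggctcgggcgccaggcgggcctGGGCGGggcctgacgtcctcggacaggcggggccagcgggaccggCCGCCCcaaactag
Collagen IV genes lie head to head in pairs. The 71 bases between the annotated starts of Col4a4 and Col4a3 (chr1:82586850-82586920, minus strand, the direction of Col4a4) hold no GC box and no CCAAT box. In the other pair, the starts of Col4a1 (chromosome 8, minus strand) and Col4a2 (plus strand) overlap by 22 bases (chr8:11312805-11312826, plus strand), with 1 GC box in capitals.
Col4a4 and Col4a3: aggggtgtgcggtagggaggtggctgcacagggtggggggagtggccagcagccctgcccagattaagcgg
Col4a1 and Col4a2: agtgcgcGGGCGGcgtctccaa
Promoter windows, from 250 bases before to 50 after a start, were found for 8 of the 10 genes, all but Lama4 and Lamc1. A GC box was present on either strand in 6 of the 8 windows and in 35.7% of all 32851 windows. CCAAT was present in 4 of the 8 and in 37.4% of all windows. Neither TATAAA nor the E-box CACGTG, the motif of clock factors, was present in the 8 windows, against 13.6 and 7.15% of all windows. Such matches describe letters and not binding.

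Total counts per library ranged from 12051881 to 22156511 in AL and from 13720079 to 19310319 in CR. Levels are given as CPM (counts scaled to an equal library total) after scaling with relative log expression (RLE) factors, with 4 values in the order of replicates 1 to 4. A floor of 3 counts corresponds to 0.152 to 0.231 CPM, which covers counting error only. Each of 9 genes listed as LG markers was detected in every library, among them Aqp5 at 105 to 190 CPM. Their sum was 222000 to 267000 CPM in AL and 88900 to 217000 CPM in CR, without overlap. Most of this sum came from secretory genes such as Obp1a. Of the 9, 4 had log2 fold changes above 0, among them Sox10, which was called higher in CR (2.13, edgeR adjusted p = 0.00746). The other 5 were below 0, among them Obp1b (-1.85, edgeR adjusted p = 0.131) and Ltf (-1.16, edgeR adjusted p = 0.0811), and none of these was called. Transcripts of the parotid gland, a neighbouring salivary gland, were also present. The sum of 6 of them was 237 to 23500 CPM in AL and 17900 to 230000 CPM in CR, lowest in replicate 4 of each diet. The summed level of 9 myoepithelial markers was 143 to 237 CPM in AL and 76.8 to 142 CPM in CR, and that of 11 leukocyte markers 66.1 to 238 CPM in AL and 39.5 to 51.9 CPM in CR. In bulk tissue, fewer cells of a type and less RNA per cell cannot be told apart.

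The comparison of CR with AL asks whether the diet changed RNA for the basement membrane. None of the 10 genes was called, that is, had an adjusted p under 0.05 with a fold change of at least 1.5 by the quasi-likelihood F test of edgeR, adjusted after Benjamini and Hochberg. The share called among all 11211 genes tested was 1.98%, 1.20% higher and 0.785% lower in CR. These 134 and 88 genes became 35 and 26 without AL replicate 2 and 453 and 247 without CR replicate 4, while 0 of the 10 were called without any 1 library. At an unadjusted p under 0.05, 1 of the 10 passed, Lama5, against 16.7% of all genes. DESeq2 called 1, also Lama5, against 5.51% of the 13241 genes to which it gave an adjusted p. Levels in CR and AL were fully separated for 1 of the 10, again Lama5, as for 9.79% of all genes. Fitted log2 fold changes were above 0 for 4 genes and below 0 for 6, with a median of -0.13 beside 0.01 over all genes tested. The parotid score described with Lama5 did not overlap between the diets. With this score in the fit, 7 were above 0 and 3 below, with a median of 0.47 (-0.01 over all genes). In that fit edgeR called 0 of all 11211 genes (unadjusted p under 0.05 for 599 above and 476 below 0). The values without the score ran from -0.54 for Lama4 to 2.08 for Lama5.

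**Figure D1:**
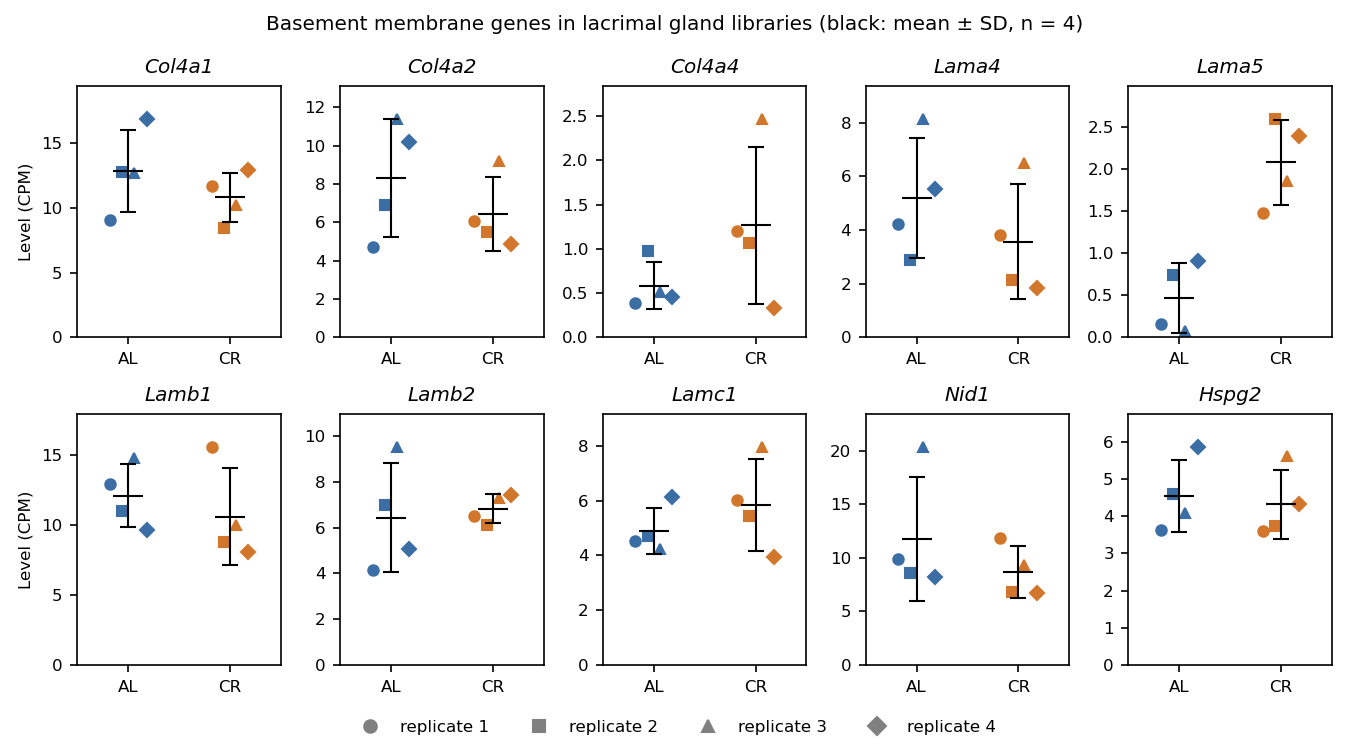
Level in CPM (y axis, from 0, a scale of its own in each panel) of the 10 genes in each of 4 AL and 4 CR libraries (x axis), with the mean ± SD in black and a symbol for each replicate number. The diets are separated for Lama5 and overlap in the other panels.

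Lama5, which encodes the laminin alpha 5 chain, was counted 2, 12, 1 and 18 times in AL and 21, 44, 30 and 43 times in CR. This corresponds to 0.154, 0.735, 0.0728 and 0.912 CPM in AL and to 1.48, 2.60, 1.86 and 2.39 CPM in CR. All 4 CR values exceeded all 4 AL values, while AL replicates 1 and 3 were under the floor of 3 counts. The exact Poisson 95% interval was 10.7 to 28.4 counts for the highest AL library and 13.0 to 32.1 counts for the lowest CR library. These intervals, which cover counting error only, overlapped. The mean was 0.469 ± 0.418 CPM in AL and 2.08 ± 0.507 CPM in CR (SD, n = 4 each). The fitted log2 fold change was 2.08 (standard error 0.64, 95% interval 0.69 to 3.47), or 4.23-fold, larger than that of 98.9% of all genes tested. Its unadjusted p was 0.0068 and its adjusted p 0.117 by the Benjamini-Hochberg method in edgeR, so it was not called. DESeq2 gave a log2 fold change of 2.11 with an adjusted p of 0.033. With the replicate number as a block in edgeR, Lama5 was called (log2 fold change 2.38, adjusted p = 0.0424), as were 6.24% of all genes, and whether the numbers pair the libraries could not be settled. Lama5 passed the filter on low counts through 2 AL and 4 CR libraries, and this filter favours genes that are high in 1 group.

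Since the Lama5 levels did not overlap between the diets, leaving out 1 library was no test of the direction. In these fits the log2 fold change ran from 1.74 without AL replicate 3 to 2.62 without AL replicate 4. When the mean log2 CPM of the 6 parotid transcripts (the parotid score) entered the fit, it was 3.56 (edgeR adjusted p = 0.473). The parotid score was 1.89 to 6.99 in AL and 9.15 to 12.94 in CR, without overlap. A fit with both can therefore hardly tell diet and score apart, for Lama5 as for the other genes. The part of the score in the Lama5 level was not tested. Without both libraries of replicate number 4, an alternative chosen after seeing the data, the log2 fold change was 2.54 (edgeR adjusted p = 0.0795). Exons of Lama5 overlap no other annotated gene. None of the 75-base windows in the last 600 bases of its transcripts or of those of the other 9 genes is shared with another gene.

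Lama4, which encodes the alpha 4 chain, had 4.23, 2.88, 8.15 and 5.52 CPM in AL and 3.82, 2.13, 6.49 and 1.83 CPM in CR. Replicate 3 was the highest of both diets and the ranges overlapped. The log2 fold change was -0.54 (standard error 0.44, 95% interval -1.49 to 0.41, edgeR adjusted p = 0.597), and it ranged from -1 without CR replicate 3 to -0.25 without AL replicate 3 when 1 library was left out (edgeR adjusted p = 0.325 and 0.876). With the parotid score in the fit it was -0.11 (edgeR adjusted p = 0.981). A share within a library does not depend on scaling between libraries. Of all counts of the 5 laminin alpha chain genes, Lama5 took 1.25, 5.88, 0.459 and 6.29% in AL and 14.9, 21.6, 11.6 and 22.5% in CR. The share was thus higher in every CR library, 17.7 ± 5.26% against 3.47 ± 3.04% (SD, n = 4 each). The Wilson 95% intervals of CR replicate 3 (8.27 to 16.1%) and AL replicate 4 (4.02 to 9.73%), which cover counting error and not the spread between mice, overlapped. Of Lama4 and Lama5 counts together, Lama5 took 0.885 to 20.3% in AL and 22.2 to 56.6% in CR. These shares were chosen after the counts had been seen and are given without a test.

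**Figure D2:**
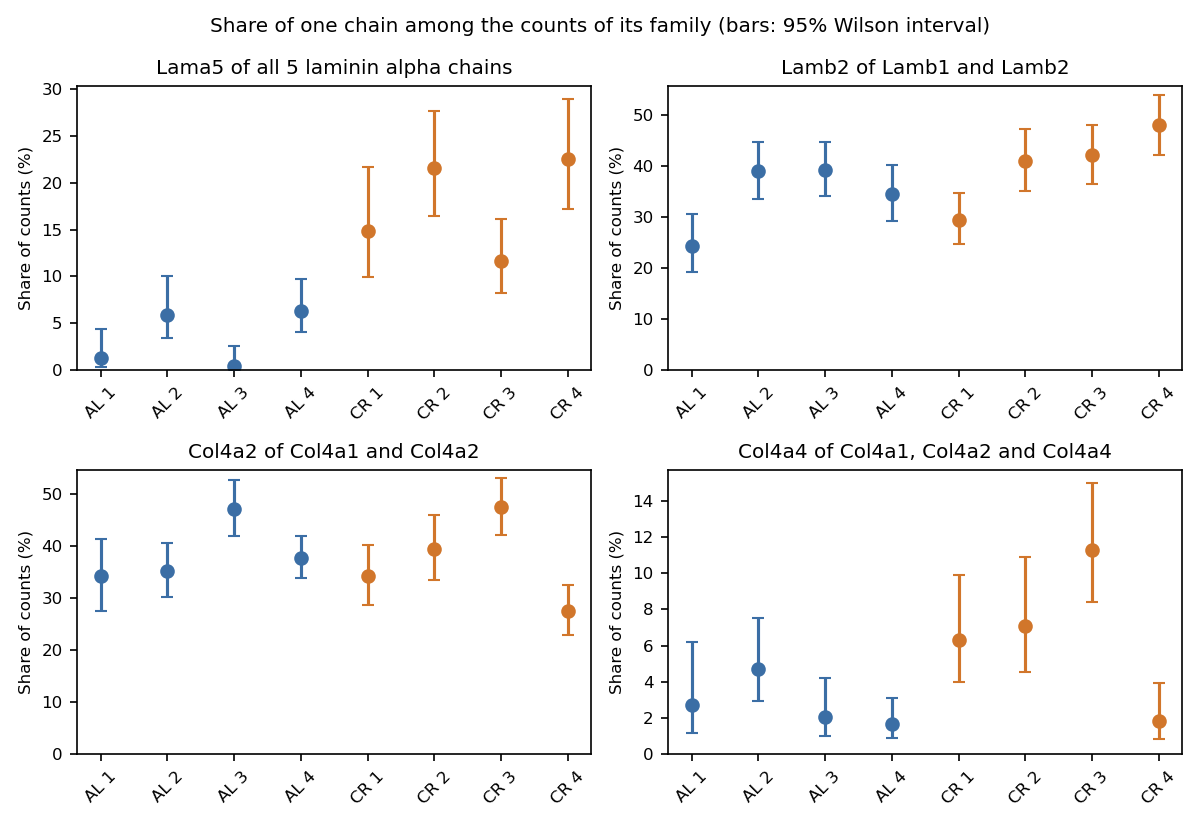
Share in % (y axis, from 0) of a chain among the counts of its family in each library (x axis, AL in blue and CR in orange), with Wilson 95% intervals, which cover counting error only. The share of Lama5 among the laminin alpha chains is 0.459 to 6.29% in AL and 11.6 to 22.5% in CR, while the shares of Lamb2, Col4a2 and Col4a4 overlap between the diets.

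The beta and gamma chains that pair with these alpha chains differed by less than the spread between libraries. Lamb1, which encodes the beta 1 chain, had 12.9, 11.0, 14.8 and 9.63 CPM in AL and 15.6, 8.75, 10.0 and 8.04 CPM in CR. CR replicate 1 was the highest of all 8 libraries and the other CR libraries lay below the AL median (log2 fold change -0.18, 95% interval -0.72 to 0.35, edgeR adjusted p = 0.783). Leaving out 1 library moved Lamb1 from -0.42 without CR replicate 1 to -0.07 without CR replicate 4, and the parotid score in the fit to -0.74. For Lamb2, the beta 2 chain, 4.16, 6.98, 9.54 and 5.07 CPM in AL stood beside 6.50, 6.09, 7.30 and 7.43 CPM in CR. All CR libraries were within the AL range (log2 fold change 0.09, 95% interval -0.51 to 0.68, edgeR adjusted p = 0.923). Lamb2 was at -0.06 without AL replicate 1, at 0.33 without AL replicate 3 and at 0.16 with the parotid score in the fit. Its sign changed in 3 of 19 alternatives. Lamc1, the gamma 1 chain shared by most laminins, had 4.54, 4.72, 4.22 and 6.13 CPM in AL and 6.01, 5.44, 7.98 and 3.94 CPM in CR. Its highest and its lowest value were both in CR (log2 fold change 0.25, 95% interval -0.35 to 0.84, edgeR adjusted p = 0.725). Lamc1 was at 0.07 without CR replicate 3, at 0.40 without CR replicate 4 and at 0.61 with the parotid score in the fit. The 95% intervals of the fold change were 0.607 to 1.27 for Lamb1, 0.702 to 1.61 for Lamb2 and 0.786 to 1.79 for Lamc1. Lamb2 made up 24.4 to 39.2% of the counts of Lamb1 and Lamb2 in AL and 29.4 to 48.0% in CR.

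Col4a1 and Col4a2 encode the chains of the collagen IV trimer that is present in nearly all basement membranes. Col4a1 (Gene ID 12826) had 9.08, 12.8, 12.7 and 16.9 CPM in AL and 11.7, 8.46, 10.2 and 12.9 CPM in CR. Col4a2 (Gene ID 12827) had 4.69, 6.92, 11.4 and 10.2 CPM in AL and 6.08, 5.5, 9.22 and 4.88 CPM in CR. For both genes the highest value was in AL, but the diets overlapped. The log2 fold change was -0.25 for Col4a1 (standard error 0.23, 95% interval -0.75 to 0.24, edgeR adjusted p = 0.646) and -0.37 for Col4a2 (standard error 0.31, 95% interval -1.05 to 0.30, edgeR adjusted p = 0.610). Leaving out 1 library gave -0.38 (without AL replicate 1) to -0.10 (without AL replicate 4) for Col4a1 and -0.59 (without CR replicate 3) to -0.19 (without AL replicate 3) for Col4a2. With the parotid score, which was separated by diet, in the fit both values turned positive, to 0.60 and 0.34, with edgeR adjusted p-values of 0.635 and 0.893. Although the genes share their start region, Col4a2 made up a share of their joint counts that varied from 27.4% in CR replicate 4 to 47.5% in CR replicate 3, with 34.1 to 47.1% in AL. The Wilson 95% intervals of both CR libraries, 22.8 to 32.5% and 42.0 to 53.0%, did not overlap. Such intervals cover counting error only and not the spread between mice. Exons of Col4a2 also overlap those of Gm15419 on the other strand, and those of Nid1 overlap Gm48682. The strand setting of the counting is not given in the sources used here.

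Col4a4 encodes a chain of the second collagen IV trimer, which is known from the kidney glomerulus and a few other epithelia and is built with the products of Col4a3 and Col4a5. It was counted 5, 16, 7 and 9 times in AL and 17, 18, 40 and 6 times in CR. In CPM these were 0.385, 0.980, 0.510 and 0.456 in AL and 1.20, 1.06, 2.47 and 0.333 in CR. CR replicates 1, 2 and 3 lay above every AL library and CR replicate 4 below every AL library. The log2 fold change was 1.10 (standard error 0.63, 95% interval -0.27 to 2.47, edgeR adjusted p = 0.426), 0.56 without CR replicate 3 and 1.42 without CR replicate 4. It passed the filter through 1 AL and 3 CR libraries. Its partner chains are given beside it. Col4a3 had 28 counts in all libraries together and was not tested, and Col4a5 differed by -1.04 on the log2 scale (standard error 0.60, edgeR adjusted p = 0.434). Of the counts of Col4a1, Col4a2 and Col4a4, Col4a4 took 1.65 to 4.73% in AL and 1.83 to 11.3% in CR.

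Nid1 (Gene ID 18073) and Hspg2 (Gene ID 15530) encode the linkers between the networks. Nid1 had 9.93, 8.58, 20.4 and 8.21 CPM in AL and 11.9, 6.80, 9.34 and 6.71 CPM in CR. AL replicate 3 stood far above the other 7 libraries. With it the log2 fold change was -0.44 (standard error 0.32, 95% interval -1.13 to 0.26, edgeR adjusted p = 0.549), and without it -0.04. With the parotid score in the fit Nid1 was at -0.97 (edgeR adjusted p = 0.648). Hspg2 had 3.62, 4.60, 4.08 and 5.88 CPM in AL and 3.60, 3.73, 5.63 and 4.33 CPM in CR. Its values overlapped almost fully (log2 fold change -0.08, 95% interval -0.68 to 0.52, edgeR adjusted p = 0.936). The sign changed in 4 of 19 alternatives, among them the fit with the parotid score (0.71, edgeR adjusted p = 0.673).

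**Figure D3:**
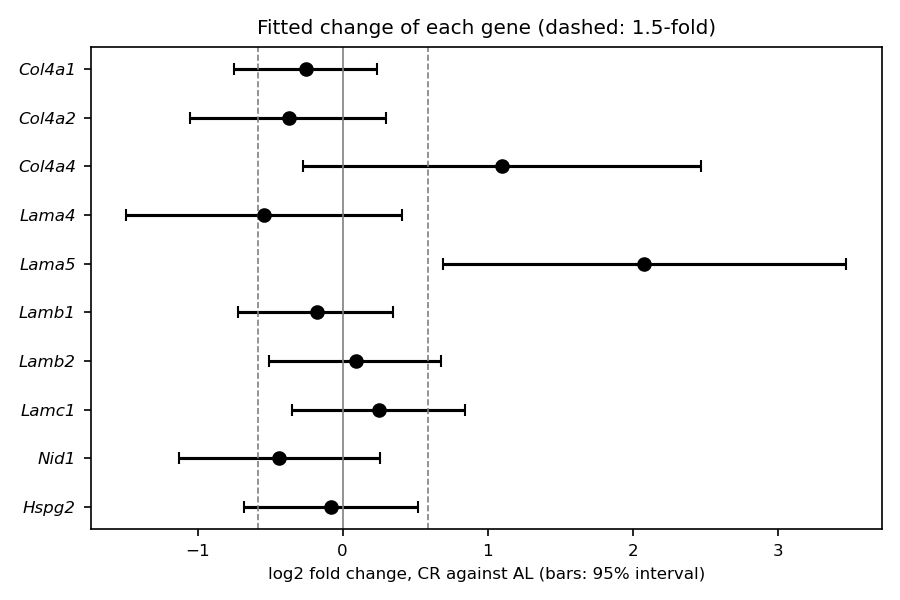
Fitted log2 fold change of CR against AL (x axis) with 95% intervals for each of the 10 genes (y axis), with dashed lines at a 1.5-fold change in either direction. The interval of Lama5, 0.69 to 3.47, lies above 0, and those of the other genes include 0.

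Across the 8 libraries the 10 genes did not follow a common order. The highest level was in AL replicate 3 for 4 genes and in CR replicate 3 and AL replicate 4 for 2 genes each, and the lowest was in CR replicate 4 for 5 genes. AL replicate 3 also had the highest sums of leukocyte (238 CPM), fibroblast (204 CPM) and myoepithelial (237 CPM) markers, and CR replicate 4 the lowest fibroblast (120 CPM) and myoepithelial (76.8 CPM) sums. On average most of the fibroblast sum was 1 gene, Dcn (mean 109 CPM in AL and 127 CPM in CR). The part of these markers in the levels was not tested. The sum over the 10 genes was 53.6 to 85.8 CPM in AL and 50.6 to 70.5 CPM in CR. Among all other genes tested, those whose log2 CPM followed the mean of the 10 centred profiles most closely over the 8 libraries were Gm45915, Thsd7a, Slc5a3, Aldh1a1 and Zfp955b, with Pearson's r from 0.940 to 0.967. With 8 libraries sharing their scaling and all 11211 genes searched, such values describe these libraries only. None of these 5 genes was called (edgeR adjusted p from 0.601 to 0.938).

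The other genes of the basement membrane were taken as 4 lists with 66 genes, of which 50 were counted often enough to be tested. None of the 50 was called by edgeR. DESeq2, which tested all 66 and gave 8 of them no adjusted p, called 3, Col15a1, Sparc and Pxdn, all lower in CR. Among the 13241 genes to which DESeq2 gave an adjusted p, 5.51% were called in either direction. At an unadjusted p under 0.05, 7 of the 50 were lower in CR, against 8.10% of all genes, and none was higher, against 8.62%. The CR libraries lay below the AL libraries for 5 genes and above them for 1, against 5.20 and 4.58% of all genes. Among the 50, log2 fold changes were below 0 for 35 and above 0 for 15, with a median of -0.25 beside 0.01 over all genes tested. The genes named in the next paragraphs were singled out after their values had been seen.

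Of the other collagen IV and laminin chains, 8 of 9 were tested, 6 with values below 0 and 2 above (median -0.39), and none had an unadjusted p under 0.05. Lama2, which encodes the alpha chain of muscle and nerve basement membranes, had 7.08, 5.88, 5.90 and 4.81 CPM in AL and 3.67, 5.15, 5.44 and 2.5 CPM in CR. Its ranges overlapped (log2 fold change -0.50, standard error 0.29, edgeR adjusted p = 0.443). Lama3 and Lamb3, which encode laminin chains of epithelial anchoring, had log2 fold changes of 0.60 and 0.07, with edgeR adjusted p-values of 0.715 and 0.950.

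Linkers and proteoglycans held the genes nearest to the threshold. Col15a1, which encodes a collagen that joins the basement membrane to the stroma, had 4.85, 14.8, 9.25 and 5.98 CPM in AL and 1.20, 3.19, 4.64 and 1.55 CPM in CR. Every CR library lay below every AL library, and the margin between AL replicate 1 and CR replicate 3 was small. The log2 fold change was -1.72 (standard error 0.46, 95% interval -2.71 to -0.72, edgeR adjusted p = 0.0789), and DESeq2 gave -1.72 with an adjusted p of 0.00709. Sparc, which encodes a collagen-binding protein that chaperones collagen IV, had 40.0, 38.8, 56.6 and 36.6 CPM in AL and 30.7, 18.9, 28.2 and 15.5 CPM in CR, again with no overlap. Its log2 fold change was -0.88 (standard error 0.24, 95% interval -1.40 to -0.37, edgeR adjusted p = 0.081, DESeq2 adjusted p = 0.0197). Both genes were called by edgeR without the filter on low counts, as were 2.61% of all genes, with adjusted p-values of 0.0295 and 0.0479. Both were also called with the replicate block, as were 6.24% of all genes, with edgeR adjusted p-values of 0.00289 and 0.00765. They had log2 fold changes of -1.84 and -1.18 with the parotid score in the fit, where no gene was called (edgeR adjusted p = 0.566 and 0.502). Of 12 tested genes in this list 10 had values below 0 (median -0.31). Agrn, the agrin gene (-0.39), and Nid2, the paralog of Nid1 (-0.30), were among them and overlapped between the diets, with edgeR adjusted p-values of 0.368 and 0.790.

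Receptors gave 10 values below 0 and 5 above among 15 tested (median -0.06). Integrin alpha 6 and dystroglycan, which bind laminins, had log2 fold changes of -0.01 for Itga6 (standard error 0.16) and 0.09 for Dag1 (standard error 0.16), with edgeR adjusted p-values of 0.992 and 0.842. The collagen receptors Itga1 (-0.73, edgeR adjusted p = 0.277) and Ddr2 (-0.66, edgeR adjusted p = 0.209) and the syndecan gene Sdc1 (-0.66, edgeR adjusted p = 0.216) were below 0 with unadjusted p-values of 0.0423, 0.0244 and 0.0261. Among 15 tested genes for folding, export and crosslinking of collagen IV, 9 were below 0 and 6 above (median -0.24). Pxdn, the peroxidasin gene, whose product makes the sulfilimine crosslinks of collagen IV, had 5.08, 8.09, 7.06 and 7.15 CPM in AL and 3.75, 3.73, 2.47 and 4.38 CPM in CR, with no overlap (log2 fold change -0.93, standard error 0.27, edgeR adjusted p = 0.0993, DESeq2 adjusted p = 0.0474). In edgeR Pxdn was not called without the filter on low counts (adjusted p = 0.106), with the replicate block (adjusted p = 0.054) or with the parotid score (log2 fold change -0.72, adjusted p = 0.7). P4ha1, a prolyl hydroxylase gene, had 6.47, 3.61, 5.31 and 5.68 CPM in AL and 1.34, 1.30, 1.98 and 4.33 CPM in CR. CR replicate 4 was within the AL range. The log2 fold change was -1.22 (standard error 0.41, edgeR adjusted p = 0.143), and without CR replicate 4 it was -1.77 with an edgeR adjusted p of 0.0116, past both thresholds. Of 11401 genes tested in that fit, 453 were called higher and 247 lower. With the replicate block in edgeR, which called 6.24% of all genes, P4ha1 was at -1.34 with an adjusted p of 0.0396. With the parotid score in the fit P4ha1 was at -0.45 with an edgeR adjusted p of 0.867.

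**Figure D4:**
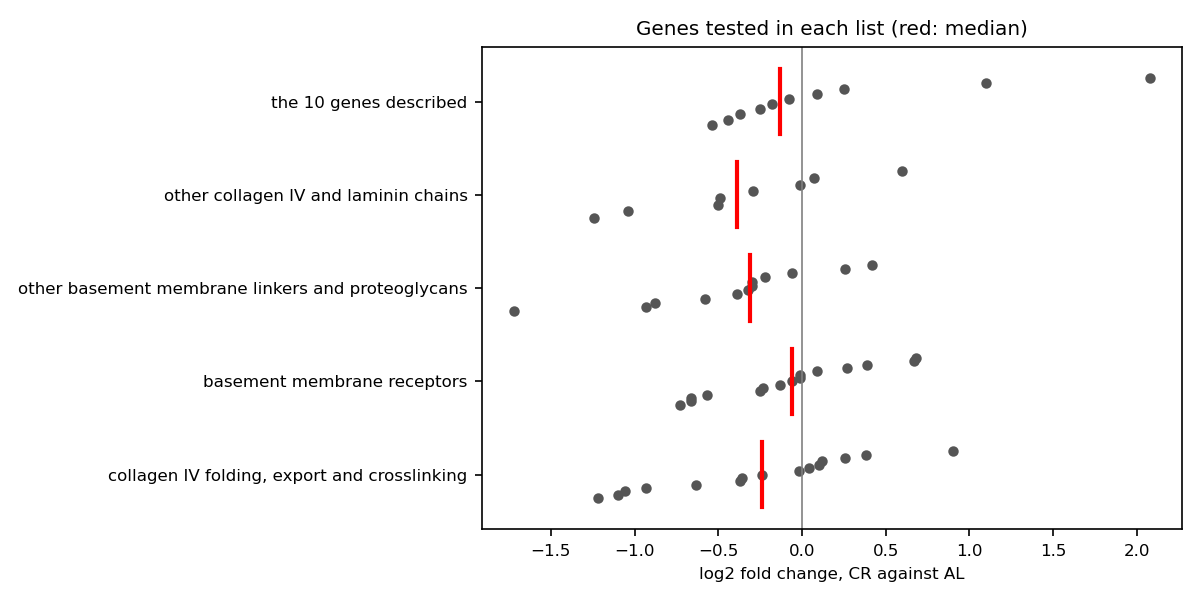
Fitted log2 fold change of CR against AL (x axis) of each tested gene in the 10 genes described and in 4 related lists (y axis), with the median of each list as a red line. The medians lie at -0.13, -0.39, -0.31, -0.06 and -0.24 from top to bottom, and Lama5 at 2.08 is the point farthest to the right.

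Markers of the cells that make basement membrane are given beside these results. Of the myoepithelial list all 8 tested genes had values below 0 (median -0.75). At an unadjusted p under 0.05 in edgeR 5 passed, against 8.10% of all genes lower in CR. Among these were Acta2 (log2 fold change -0.64, edgeR adjusted p = 0.210) and Krt5 (-0.91, edgeR adjusted p = 0.173). Krt14 (-0.05, edgeR adjusted p = 0.949) and Trp63 (-0.25, edgeR adjusted p = 0.862) lay nearest to 0. The fibroblast list without collagens had 8 of 9 values below 0 (median -0.96), 3 of them with an unadjusted p under 0.05 in edgeR. Its sums were 123 to 204 CPM in AL and 120 to 187 CPM in CR. On average most of the sum was Dcn (mean 109 CPM in AL and 127 CPM in CR), the gene above 0 (log2 fold change 0.22). The endothelial list had 8 of 11 values above 0 (median 0.19) and sums of 20.9 to 34.6 CPM in AL and 29.6 to 37.4 CPM in CR, and the pericyte list 5 of 5 (median 0.47). The epithelial list had 6 of 7 values above 0 (median 0.14), with sums of 274 to 329 CPM in AL and 328 to 424 CPM in CR. At an unadjusted p under 0.05 in edgeR, 1 endothelial and 1 epithelial gene were higher in CR, against 8.62% of all genes, and no pericyte gene. None of the genes in these lists was called by edgeR. Of 5 skeletal muscle and 4 Schwann cell genes tested, 5 and 3 were above 0, with sums of 1.29 to 12.5 and 11.5 to 21.6 CPM in AL and 2.90 to 63.5 and 13.4 to 20.8 CPM in CR. White adipose markers were 8.08 to 18.5 CPM in AL and 23.9 to 95.7 CPM in CR, with Fabp4 called higher (log2 fold change 2.37, edgeR adjusted p = 0.0208), and the 6 tested leukocyte markers had a median of -1.36. Whether these shifts take part in the levels of Lama5, Col15a1 or Sparc was not tested.

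**Figure D5:**
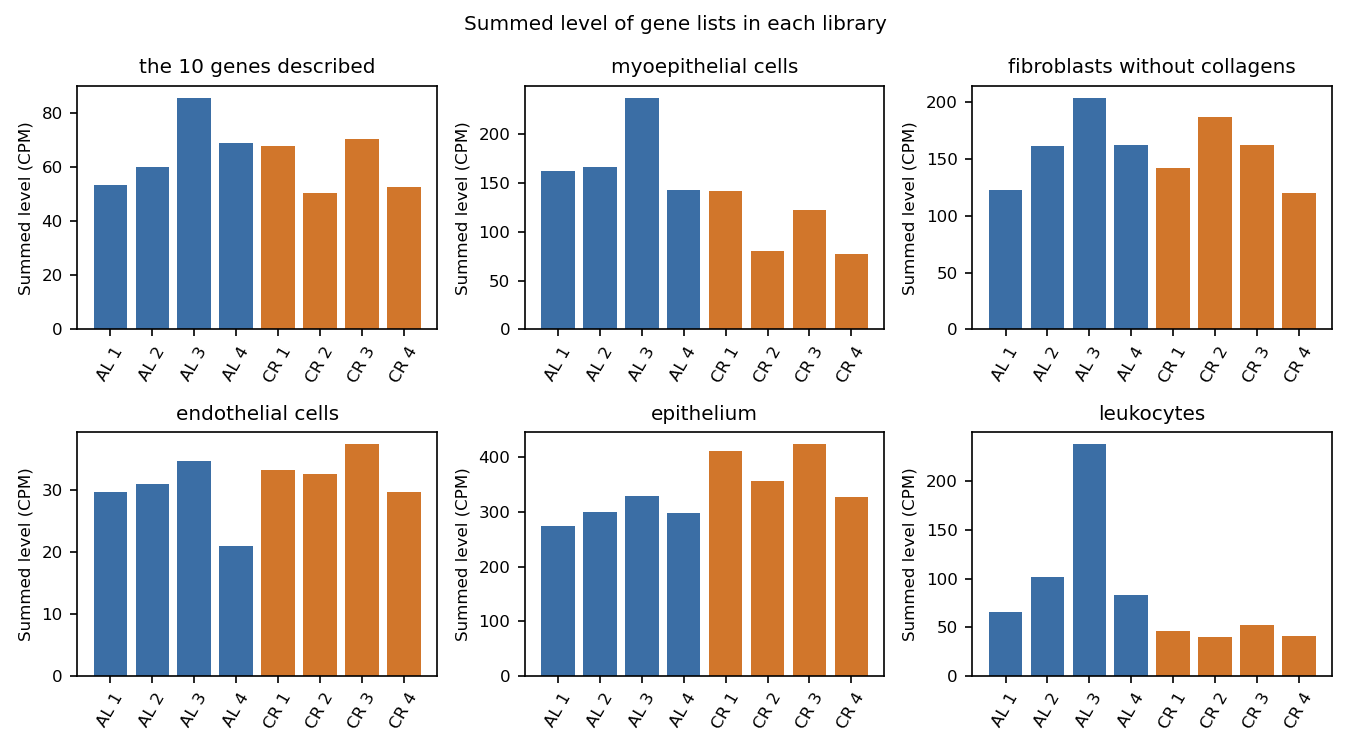
Summed level in CPM (y axis, from 0) of the 10 genes described and of 5 marker lists in each library (x axis, AL in blue and CR in orange). The myoepithelial sum is 143 to 237 CPM in AL and 76.8 to 142 CPM in CR, and the sum over the 10 genes overlaps between the diets.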

How the data were processed

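Libraries of 4 AL and 4 CR glands were prepared with the Lexogen QuantSeq 3' kit. After trimming (cutadapt) and alignment to mm10 (STAR), the authors obtained raw counts per gene from HTSeq, the deposited unit used here. Tool versions and the annotation are not given in the sources used here. The deposited log2 normalized values were not used. After 5 repeated symbols were dropped, 24552 genes remained, and 11211 passed edgeR's filterByExpr. Differences between the diets were fitted on all of these genes together in edgeR 4.0.16 (R 4.3.3), scaled by RLE, tested by quasi-likelihood F and adjusted after Benjamini and Hochberg. A gene was called where its adjusted p was below 0.05 and it changed at least 1.5-fold. Standard errors were obtained as log2 fold change over the root of F. The pipeline was tested on simulated data.

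The 10 genes, the related lists and the marker lists were chosen with earlier results of these data known. Named were the 10 genes, related genes past the thresholds and the 5 genes with the most similar profile, and further genes were singled out after their values had been seen. All 10 genes passed the filter, so the exact permutation test planned for rarely counted genes was not needed. Shares among chains of a family were compared between libraries, not between chains, since genes can differ in how well 3' ends are primed. Positions come from GENCODE vM21. Other settings tried were scaling by TMM or upper quartile, DESeq2 1.42.0, other filters, robust dispersion estimates, no fold-change threshold, a replicate block, the parotid score as a covariate, leaving out the 50 most counted genes and leaving out each library in turn.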

Additional observations from a re-analysis of the deposited data

Results flagged for a closer look

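In 28 groups of 4 libraries checked for a library far from the others (the levels of 10 genes and 4 chain shares in each diet), 1 was found, where chance gives about 1 in 20. The Nid1 level of AL replicate 3, 20.4 CPM, lay apart from the other AL libraries at 8.21 to 9.93 CPM, and its gap to the nearest was 0.859 of the whole range. Of the 8 libraries, AL replicate 3 had the highest sums of leukocyte and fibroblast markers, the latter mostly of Dcn. The part of these markers in the Nid1 value was not tested. Without it the log2 fold change of Nid1 was -0.04.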

How the results depend on the processing

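Of 188 log2 fold changes of the 10 genes under 19 alternatives, 177 kept their direction and stayed uncalled. The alternative without a fold-change threshold used the reported fit, so its log2 fold changes could not differ. Those with robust dispersion estimates were the same after rounding. Lama5 was called with DESeq2 (2.11) and with a replicate block (2.38, edgeR adjusted p = 0.0424), so 1 of the 10 genes was called under each, and its adjusted p over all alternatives ranged from 0.033 to 0.473. At least 10 counts in every library left 8 of the 10 genes, without Lama5 and Col4a4. The sign turned with the parotid score as a covariate for Col4a1 (0.60), Col4a2 (0.34) and Hspg2 (0.71), for Lamb2 without AL replicate 1 (-0.06), AL replicate 4 (-0.02) or both libraries of number 4 (-0.06), and for Hspg2 without AL replicate 4 (0.07), CR replicate 1 (0.01) or both libraries of number 4 (0.07). When 1 library was left out in turn, Lamb2 ranged from -0.06 to 0.33 and Hspg2 from -0.22 to 0.07. The median of the 10 was 0.47 with the parotid score, which was separated by diet, in the fit, and -0.19 to -0.05 when 1 library was left out. The causes were not tested.

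Genes called higher and lower numbered 134 and 88 as reported, 413 and 316 with DESeq2, 271 and 165 without a filter, 388 and 312 with the replicate block, 0 and 0 in edgeR with the parotid score (599 and 476 at an unadjusted p under 0.05) and 413 and 243 without both libraries of number 4. Leaving out 1 library gave 35 to 453 higher and 25 to 247 lower, with 453 and 247 without CR replicate 4, 91 and 75 without AL replicate 4, and at most 75 and 46 without any of the other 6. Related genes called numbered 3 with DESeq2, 2 without a filter, 3 with the replicate block, 1 without both libraries of number 4 and 0 to 1 with 1 library left out, P4ha1 without CR replicate 4. Libraries of the same number were not treated as pairs. Their deviations from the diet means correlated at 0.182, 0.0995, 0.278 and 0.507 with a pseudocount of 0.5, not all over 0.1, but at 0.114 or more with a pseudocount of 1, so that the pairing was not settled, and 5 of 8 libraries correlated best with their own number. Depth limits Lama5 and Col4a4, with 1 to 44 counts per library.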
